A study of Mus musculus with 6 samples.

Results

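The most abundant transcripts of obese mouse fat, and the transcripts whose level varied most between obese samples, were described from the 3 ob/ob samples of a study of 6 adipose tissue samples. Genes were ranked by the mean brightness of their reporter, the probe printed on the array, over the 3 ob/ob arrays. Of 39507 reporters, 30014 carried a gene symbol and a value on all 3 ob/ob arrays. They represented 25695 genes, each taken by its brightest reporter. Of these, 15776 genes had a mean intensity above 0.1 in the authors' units, and 273 of those had a standard deviation (SD) of log2 sample over pool of at least 0.5 between the 3 arrays. These 273 are called high-spread genes below, and they are 1.73% of the genes above 0.1. Group differences were not tested, and 3 samples give descriptions of spread without p-values.

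The samples were tissue labelled eWAT from mice 9 weeks old. An ob/ob mouse has the obese mutation in both copies of the leptin gene, makes no working leptin and grows obese. The other 3 samples came from lean ob/+ mice of the same age, which have the mutation in 1 copy, and a pool of ob/+ RNA was the reference on every array. The labels give the C57BLKS/J background under the pool's channel, and no other allele or agent for either genotype. They do not say whether a sample was 1 animal or several, so the spread described here lies between samples. Each array held 1 sample in Cy5 and the pool in Cy3. The ob/ob samples carry the numbers 1, 2 and 3 of the deposited table, which cannot be matched to the labels' replicate numbers. In whole tissue, fewer cells of a type and less RNA per cell cannot be told apart.

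White fat stores triglyceride in adipocytes, which take up glucose and fatty acids, make new fatty acids under insulin, and release them by lipolysis. The tissue also holds endothelium, progenitor cells, collagen-producing cells, a mesothelial covering and immune cells. In obesity macrophages accumulate around stressed adipocytes, take up lipid, and express a lysosomal and lipid-handling set of genes that includes Trem2, Gpnmb and Spp1.

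The tissue label was checked against marker genes. Adipoq, which encodes adiponectin, read 10.20, 11.69 and 14.26 in samples 1, 2 and 3, and Fabp4, the adipocyte fatty acid carrier, read 7.21, 9.27 and 7.26. Both adipocyte markers were thus far above the median of 0.167 over the 25695 genes. Of 12 markers of the epididymal epithelium, 3 had an ob/ob mean above 0.1, against 15776 of all 25695 genes. The 3 were Rnase10 at 0.77, 0.53 and 0.50, Adgrg2 at 0.40, 0.40 and 0.65, and Teddm1a at 0.29, 0.22 and 0.17. The others were lower, among them Crisp1 at 0.08, 0.07 and 0.07, and the ob/+ means were 12.99 for Crisp1 and 13.77 for Adgrg2. The brown adipocyte gene Ucp1 was at 0.03, 0.04 and 0.05. The B cell markers Cd79a and Ms4a1 read at most 0.07 in any ob/ob sample, and the T cell marker Cd3g read at most 0.10. Other lymphocyte genes were brighter. Of 9 measured B and plasma cell genes 7 had an ob/ob mean above 0.1, as did 6 of 11 T and NK cell genes. Both counts lie near the share over all ranked genes, 15776 of 25695.

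Sample 3 stood apart from the other ob/ob samples across the array. Over the 15776 genes, Pearson's r of the log2 ratios was 0.961 between samples 1 and 2, 0.915 between samples 1 and 3, and 0.890 between samples 2 and 3. Genes of one array share its RNA, labelling and scan and are not independent. Among 872 genes more than 2-fold above the pool on average, sample 3 lay nearest to the pool in 545 (62.5%, against 40.2% of all 15776 genes), and the median log2 ratios were 1.48, 1.5 and 1.22 in samples 1, 2 and 3. Among 612 genes more than 2-fold below the pool, sample 3 was nearest in 422 (69.0%), with medians of -1.45, -1.52 and -1.25. Sample 3 therefore differed less from the lean pool in both directions. The brightest value also differed between the arrays, at 40.86, 41.79 and 52.00. Whether a technical difference between the arrays had a part in this was not tested.

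The brightest gene of ob/ob fat was Lgals3, which encodes galectin-3, a lectin of macrophages and other cells. It read 39.89, 41.76 and 52.00 in samples 1, 2 and 3 (mean 44.55 ± 6.52, SD, n = 3), against a mean of 19.43 in the ob/+ samples. Next came Anxa1, an anti-inflammatory phospholipid-binding protein, at 44.35 ± 6.29, and Lpgat1, an acyltransferase of phospholipid metabolism, at 44.20 ± 6.55. The order among the leading genes does not exceed the spread, since 27 of the 40 brightest lay within 1 SD of the first. A reporter's brightness also depends on its sequence, so the order is one of brightness and not of transcript copies.

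Lipid genes were prominent at the top. Scd2, a desaturase that makes monounsaturated fatty acids, read 40.03, 41.42 and 48.35. Plin2, a coat protein of lipid droplets, read 38.88, 41.37 and 46.95. Mest, an imprinted gene associated with adipocyte enlargement, read 38.06, 40.58 and 47.12. All 3 values of each of these genes lay above the ob/+ means, which were 13.70, 22.45 and 13.27. Pnpla2, the lipase that begins triglyceride breakdown, ranked 93rd at 28.92, 27.46 and 32.20.

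Secreted and matrix genes shared the top ranks. Hp encodes haptoglobin, an acute phase protein that fat also secretes, and read 36.48, 39.71 and 46.13 against an ob/+ mean of 17.44. Col6a3, a chain of the type VI collagen around adipocytes, read 36.61, 40.67 and 44.73. The basement membrane chain Col4a1 read 37.39, 35.34 and 41.04. Mfge8, a bridge protein that helps phagocytes bind dying cells, had a mean of 40.58, and the collagen chaperone Serpinh1 one of 38.38.

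Lysosomal and antigen-presenting genes were also bright. The lysosomal protease genes Ctsl and Ctsa had means of 39.84 and 39.18. H2-Eb1, a chain of MHC class II, read 39.33, 41.11 and 32.14, and C1qa, a complement gene of macrophages, read 38.95, 41.29 and 31.60. In these last 2 genes sample 3 was lowest, whereas sample 3 was the brightest in 29 of the 40 genes and in 18 of the first 20. The array of sample 3 also had the highest maximum, at 52.00 against 40.86 and 41.79 for samples 1 and 2. The cytoskeletal genes Tuba1a, Vim, Tmsb4x and Msn, the ferritin light chain gene Ftl1, and Cebpb, a transcription factor of adipocyte formation and inflammation, were also among the 40.

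None of the 40 brightest genes is high-spread, and at a background of 1.73%, or 2.45% above an intensity of 10, 40 genes need not hold one. These genes also lay near the brightest values of samples 1 and 2, at 40.86 and 41.79. Whether this narrowed their spread was not tested. Their SD of log2 sample over pool had a median of 0.16, against 0.115 over all genes above 0.1 and 0.147 over genes above 10, and ranged from 0.03 in Psmb5, a proteasome subunit, to 0.44 in Trp53inp2, an autophagy regulator. For Trp53inp2 the SD of the pool channel itself was 0.41. Of the 40 genes, 9 were among the 40 brightest of ob/+ fat and 27 among its 200 brightest. Of the 200 brightest genes of ob/ob fat, 122 (61.0%) were also among the 200 brightest of ob/+ fat. The ob/+ ranking took only reporters with values on all 3 ob/+ arrays, so this overlap may be understated. For example, Glul, with a mean of 43.2 over 2 ob/+ arrays, and Apoe, at 48.16 on 1, had no ob/+ rank. The ob/ob mean was more than 2 times the ob/+ mean for 8 of the 40 genes, and 4 of the 40 lacked a complete set of ob/+ values.

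**Figure D1:**
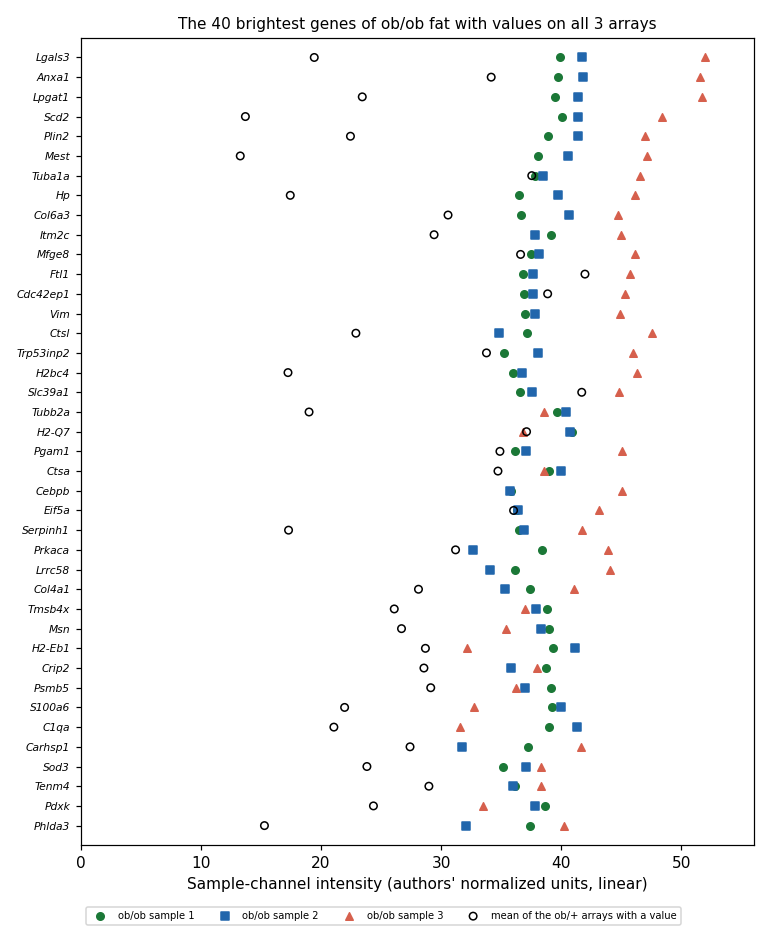
Sample-channel intensity of the 40 brightest genes in the 3 ob/ob samples (filled symbols) on a linear axis, with the mean over the ob/+ arrays that held a value as an open circle. Sample 3 is the brightest of the 3 in 29 of the 40 genes, and its array also had the highest maximum, at 52.00 against 40.86 and 41.79.

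The ranking leaves out genes whose brightest spots had no deposited value. On the ob/ob arrays 148 reporters with a symbol lacked at least 1 value, and sample and pool were missing together. Of these, 41 had a mean above 36.56, the level of the gene ranked 40th, and 35 of the 41 had a value in sample 3 alone. They include Gpd1, which makes the glycerol backbone of triglyceride, at 45.02, the complement gene Cfb at 44.99, Cat, the catalase gene, at 44.66, and Lrg1, a secreted acute phase protein, at 42.53, each in sample 3 only. Actb, which encodes beta-actin, had 37.24 in sample 2 and 43.84 in sample 3. These genes were picked after their values were seen. With such reporters included, 14 of the 40 brightest genes were kept, so the list is of bright genes measured on all 3 arrays.

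Some gene lists held several of the 200 brightest genes, where 0.778% of all ranked genes stand. Of 20 lysosomal genes 5 did (Ctsl, Ctsa, Hexa, Cd63 and Ctss). Of 23 macrophage genes 4 did (Lgals3, C1qa, Gpnmb and Trem2), as did 4 of the 19 collagen and matrix genes above 0.1. Gpnmb, a glycoprotein of lipid-laden macrophages, read 37.60, 40.80 and 16.10, against an ob/+ mean of 1.55. Trem2, a lipid-sensing receptor of macrophages, read 37.35, 30.35 and 10.82, against 1.77. Both were thus among the brightest genes in samples 1 and 2 and much dimmer in sample 3, while every ob/ob value lay above the ob/+ mean. None of the listed cholesterol synthesis, respiratory chain or cell cycle genes stood among the 200. At 0.778% lists of their size need not hold one. Outside the lists, Ndufb3, a subunit of complex I, stood at rank 48. Cox6a1, a subunit of cytochrome oxidase, stood at rank 77, and both respiratory chain genes were picked after their values were seen.

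A gene named for the exocrine pancreas was also bright. Cela1, an elastase of pancreatic acinar cells, read 29.10, 28.99 and 26.18 (rank 118), against an ob/+ mean of 2.48. Its SD of log2 sample over pool was 0.04. Of 11 acinar genes measured, 4 were above 0.1, against 15776 of all 25695 genes. The 4 were Cela1, the lipase gene Pnlip at 0.74, 0.66 and 0.65, and Cela2a and Ctrb1, each with a mean of 0.15. The acinar markers Prss2 and Cpa1 read at most 0.08 in any ob/ob sample.

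The spread of most genes was small. Over the 15776 genes the median SD of log2 sample over pool between the ob/ob arrays was 0.115, and the median SD of the pool's own log2 intensity on the same arrays was 0.086. An SD of at least 0.5 was found in 273 genes (1.73%) for the ratio and in 79 genes (0.501%) for the pool channel, and 3 of the 273 had both. Between the ob/+ arrays such an SD was found in 229 of 15700 genes with complete values (1.46%). Of 272 high-spread genes with ob/+ values, 39 also had an SD of at least 0.5 between the ob/+ arrays. The share of high-spread genes was 1.42% at intensities of 0.1 to 0.3 and 2.45% above 10. Just inside the intensity filter stood Mug2 at 0.103 and just outside it Es31 at 0.1, with SDs of 1.13 and 1.11. Just inside and just outside the SD threshold stood Acer2 at 0.5002 and Fcgr4 at 0.4990.

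**Figure D2:**
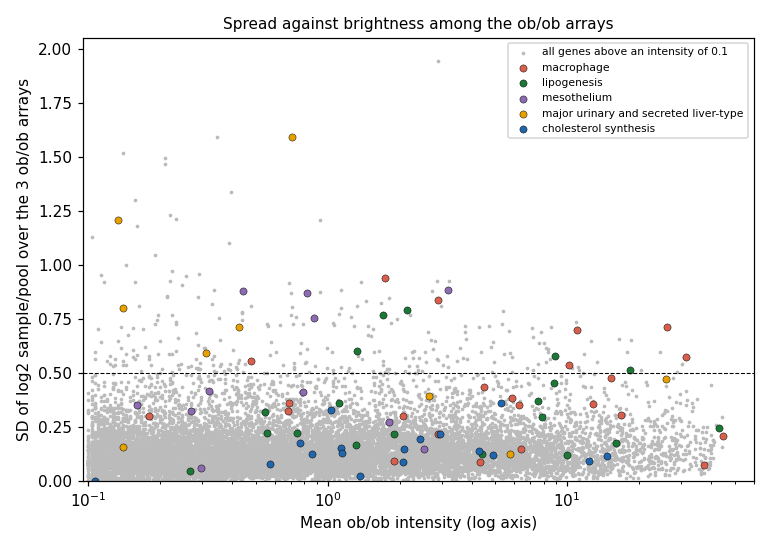
SD of log2 sample over pool between the 3 ob/ob arrays against the mean ob/ob intensity on a log axis, for the 15776 genes above 0.1 (grey) and 5 gene lists (coloured). The dashed line marks an SD of 0.5, and all cholesterol synthesis genes lie below it.

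In most high-spread genes sample 3 was the one standing apart. The sample standing apart is the one farther from the middle of the 3 values, so every gene without a tie has one. It was sample 3 in 222 of the 273 genes (81.3%), against 42.7% of all genes above 0.1. Sample 3 was the low one in 168 genes (61.5%, background 20.2%) and the high one in 54 (19.8%, background 22.5%). Sample 1 was the high one in 17 genes (background 12.7%) and the low one in 2 (background 11.2%). Sample 2 was high in 19 (background 14.03%) and low in 13 (background 18.1%). Of the 168 genes low in sample 3, 159 had a mean above the pool, and of the 54 genes high in sample 3, 36 had a mean below it. An SD is large by the rule for all 273 genes, so these counts describe which sample lay farthest out. After quantile normalization of the log2 ratios, the low count was 110 (47.2%) and the high count 67 (28.8%) of 233 high-spread genes. Without sample 3, the SD between samples 1 and 2 reached 0.5 in 70 genes, 55 of them among the 273.

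**Figure D3:**
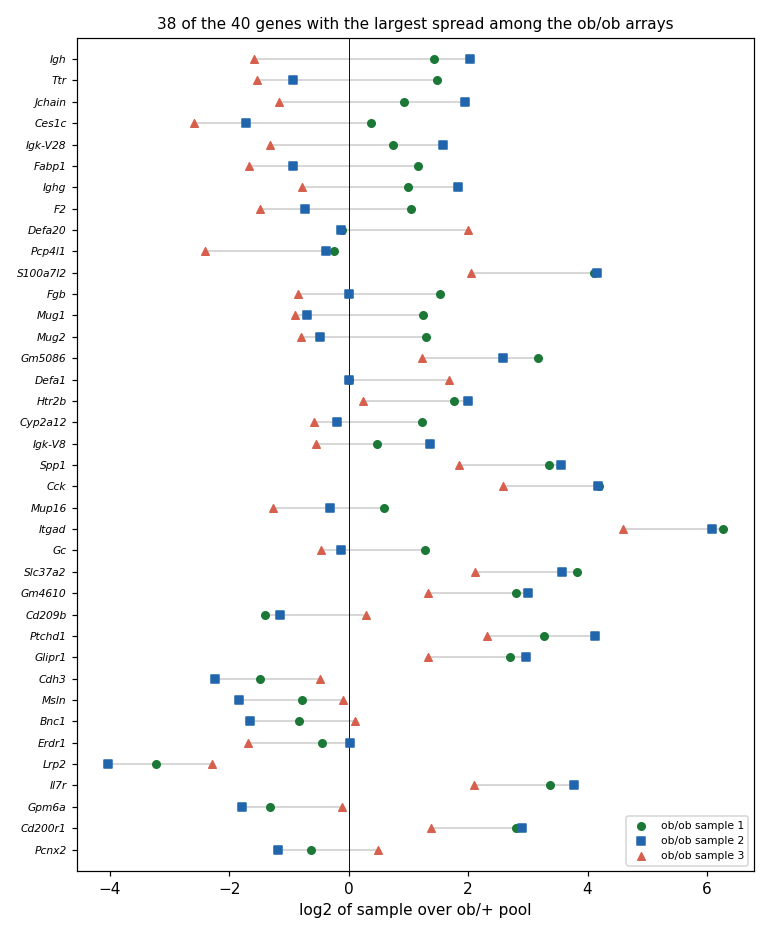
Log2 of sample over ob/+ pool for 38 of the 40 genes with the largest SD, 1 symbol per ob/ob sample, with 0 the level of the pool. The symbols of sample 3 stand to the left of the others for Igh, Spp1 and Itgad and to the right for Defa20 and Cd209b, and sample 1 is to the right for Ttr and the other liver-type genes.

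Most macrophage genes had sample 3 low. All 23 genes of the list were above 0.1, and sample 3 was the low one in 16 of them (background 20.2%) and the lowest, by its log2 ratio, in 19 (background 33.7%). The exceptions, named after their values were seen, were Lgals3 with sample 3 high and Cd163, Lyve1 and Fabp5 with sample 1 low. C1qa, Mrc1 and Msr1 had sample 2 high. Cd163 and Lyve1 also lay below the pool, with mean log2 ratios of -0.96 and -1.18. Of the 23, 7 are high-spread, against 1.73% of all genes above 0.1. The median deviation from each gene's own mean was 0.21, 0.20 and -0.40 on the log2 scale in samples 1, 2 and 3. The median SD of the list was 0.35, against 0.16 between the ob/+ arrays and 0.10 for the pool channel. Samples 1 and 2 differed by a median of 0.14 in size over these genes, against 0.11 over all genes above 0.1.

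Spp1, which encodes the secreted matrix protein osteopontin, read 2.04, 2.48 and 0.68, and its log2 ratios were 3.35, 3.56 and 1.84 (SD 0.94). Its other reporter had the same order, at 1.41, 1.65 and 0.49. Atp6v0d2, a subunit of the lysosomal proton pump, had log2 ratios of 4.18, 4.28 and 2.78 (SD 0.84). The log2 ratios of Trem2 were 3.98, 3.77 and 2.65 (SD 0.71). In all 3 genes samples 1 and 2 lay close together and sample 3 lay apart below them, still well above the pool. Adgre1, the macrophage surface marker F4/80, read 13.60, 14.06 and 5.33 (SD 0.70 of the log2 ratio). Lyz2, a lysozyme gene shared by macrophages and neutrophils, varied less, at 4.50, 4.58 and 3.89 (SD 0.09), and Cd68, a lysosomal marker of macrophages, had an SD of 0.30.

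Other genes of the leading 40 by SD, which belong to no list, had the same order of samples. Itgad, an integrin of tissue macrophages, read 4.61, 4.09 and 0.96, with log2 ratios of 6.26, 6.09 and 4.58. Its pool channel lay near the rounding step of 0.01, which makes those ratios coarse. Slc37a2, a sugar phosphate transporter of macrophages, read 1.69, 1.78 and 0.65. Cck, which encodes the peptide cholecystokinin, read 3.67, 3.80 and 1.08, against an ob/+ mean of 0.147. Il7r, an interleukin receptor of lymphocytes, read 0.72, 1.09 and 0.30. In each of these genes sample 3 was far below both other values.

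Chemokine and antigen-presenting genes often had sample 3 low. Of 23 acute phase and chemokine genes, 10 had sample 3 low (background 20.2%), 5 had it high (background 22.5%), and 4 are high-spread (background 1.73%). The count with sample 3 high is thus near the background. The 5 were the acute phase genes Saa1, Hp, Orm1, Lbp and Serpina3n, singled out after their values were seen. Of the other acute phase genes, Lcn2 had sample 3 low, Saa3 had sample 2 high and Saa2 had sample 1 low. Orm1, which encodes the plasma protein orosomucoid, read 0.69, 0.65 and 0.95 (SD 0.35). Ccl2, a chemokine that recruits monocytes, read 7.33, 9.88 and 3.24, and its relative Ccl7 read 1.41, 2.02 and 0.55. Il1rn, the natural blocker of the interleukin-1 receptor, read 5.04, 4.46 and 1.90. All 7 MHC class II genes were lowest in sample 3 (background 33.7%), which stood apart low in 6 (background 20.2%). Their median deviation in sample 3 was -0.29, and none is high-spread (background 1.73%). Their values were 1.93, 2.02 and 1.13 for H2-Ab1 and 2.92, 2.66 and 1.71 for Cd74, the chaperone of class II chains. Of 20 lysosomal genes, 10 had sample 3 low, and Ctss, the protease that processes the class II chaperone, read 36.25, 36.39 and 18.05 (SD 0.54).

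Genes of cell division had sample 3 low throughout the list. Sample 3 was lowest in 18 of 18 (background 33.7%) and stood apart low in 17 (background 20.2%). The median deviations were 0.10, 0.20 and -0.30, although none of the genes reached an SD of 0.5 (background 1.73%). Pcna, the sliding clamp of DNA replication, read 12.46, 16.17 and 6.40 (SD 0.499). Rrm2, which makes DNA precursors, read 3.89, 4.01 and 2.21, and Aurkb, a kinase of mitosis, read 0.30, 0.32 and 0.19. Sample 3 was above the pool in all 18 genes, so being the lowest also made it the nearest to the pool. Sample 3 was lowest in 11 of 12 ribosomal protein genes as well (background 33.7%), and it stood apart low in 7 of them (background 20.2%), with a median deviation of -0.17.

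Fatty acid synthesis genes had the opposite order. Sample 3 was the high one in 15 of 19 lipogenesis genes (background 22.5%) and the highest in 17 (background 37.9%). Of the 19, 5 are high-spread (background 1.73%). The median deviations were -0.12, -0.24 and 0.28. Sample 3 was nearest to the pool in 3 of the 19 and in 19 of the 23 macrophage genes (background 40.2%). Its ratio was above the pool in 14 of the 19, and samples 1 and 2 were both below the pool in 7.

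Thrsp, a lipogenic gene that responds to thyroid hormone and carbohydrate, read 1.68, 1.35 and 3.41, with log2 ratios of -0.41, -0.67 and 0.81 (SD 0.79). Elovl6, which lengthens palmitate, read 1.30, 1.15 and 2.68 (SD 0.77), whereas its other reporter read 0.72, 0.56 and 0.77 (SD 0.06). Scd1, the main stearoyl-CoA desaturase of fat, read 1.05, 0.93 and 1.99. Samples 1 and 2 thus lay together and sample 3 well above them in the brightest reporter of each gene, but not in the other reporter of Elovl6. Me1, which supplies NADPH, read 6.64, 6.87 and 13.30. Acly, which makes cytosolic acetyl-CoA, read 15.07, 13.32 and 26.62. Fasn, the fatty acid synthase gene, had log2 ratios of 0.43, 0.29 and 1.13 (SD 0.45).

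Adipocyte genes followed the lipogenic order. Sample 3 was the high one in 9 of 15 adipocyte identity genes, in 10 of 16 genes of triglyceride synthesis and lipolysis, and in 8 of 10 glucocorticoid response genes (background 22.5%). The lists share Plin1, Lipe and Pnpla2. Retn, the adipokine resistin, read 3.41, 2.94 and 6.53 (SD 0.71). Adipoq had log2 ratios of -1.64, -1.35 and -0.89 (SD 0.38), and Plin1, the lipid droplet gatekeeper, -0.69, -1.10 and -0.26 (SD 0.42). Sample 3 had the highest ratio in each of these 3 genes and was the nearest to the pool, as it was in 10 of the 15 adipocyte genes (background 40.2%). These values are of the brightest reporter. The other reporter of Plin1 had an SD of 0.07, and the 2 reporters of Lipe had SDs of 0.56 and 0. Pck1, an enzyme of glyceroneogenesis, had sample 2 as the low one, at 17.54, 12.07 and 19.58 (SD 0.66 of the log2 ratio, 0.29 of the pool channel). Pdk4, which holds back glucose oxidation, read 2.76, 2.69 and 4.99, and Fkbp5, a glucocorticoid target, 0.46, 0.37 and 0.69.

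Other adipocyte genes varied less than these. Lep, the leptin gene, read 0.43, 0.39 and 0.48, with log2 ratios of 2.10, 2.12 and 2.13 (SD 0.01). The SD of its pool channel was 0.14. With intensities in steps of 0.01 its ratios are coarser than an SD of 0.01. Pparg, the transcription factor that maintains adipocytes, had an SD of 0.07, and Cd36, a fatty acid transporter, one of 0.12. Scd2 and Plin2, among the brightest genes, had SDs of 0.24 and 0.24.

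Promoter sequences of 4 genes, Spp1 and Trem2 from the macrophage list and Thrsp and Elovl6 from the lipogenesis list, are shown because these genes carry the opposed orders of sample 3. They run from 250 bases before the transcription start to 50 after it, on the strand of the gene, from RefSeq (GRCm38.p6), at chr5:104434861-104435160 (plus strand) for Spp1, chr17:48346151-48346450 (plus) for Trem2, chr7:97417501-97417800 (minus) for Thrsp and chr3:129532136-129532435 (plus) for Elovl6. Capitals mark GAGGAAGT, a binding sequence of PU.1, the factor that directs macrophage formation, read on either strand.
Spp1: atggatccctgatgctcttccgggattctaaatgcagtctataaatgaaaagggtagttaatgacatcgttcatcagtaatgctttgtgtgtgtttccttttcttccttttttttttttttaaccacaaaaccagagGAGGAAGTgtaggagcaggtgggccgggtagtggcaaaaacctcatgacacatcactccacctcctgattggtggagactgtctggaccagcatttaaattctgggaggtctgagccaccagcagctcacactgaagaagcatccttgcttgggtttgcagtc
Trem2: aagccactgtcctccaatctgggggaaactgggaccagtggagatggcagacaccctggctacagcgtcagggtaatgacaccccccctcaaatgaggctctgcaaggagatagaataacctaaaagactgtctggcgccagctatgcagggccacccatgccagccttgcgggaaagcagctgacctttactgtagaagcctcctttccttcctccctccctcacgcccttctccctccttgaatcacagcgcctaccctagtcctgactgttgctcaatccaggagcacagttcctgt
Thrsp: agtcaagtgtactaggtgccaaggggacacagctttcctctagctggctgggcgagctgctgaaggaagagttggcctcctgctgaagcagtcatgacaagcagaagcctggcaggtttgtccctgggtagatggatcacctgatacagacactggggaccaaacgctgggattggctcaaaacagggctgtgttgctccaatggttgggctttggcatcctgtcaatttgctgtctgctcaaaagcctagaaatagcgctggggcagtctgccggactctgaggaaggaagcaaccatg
Elovl6: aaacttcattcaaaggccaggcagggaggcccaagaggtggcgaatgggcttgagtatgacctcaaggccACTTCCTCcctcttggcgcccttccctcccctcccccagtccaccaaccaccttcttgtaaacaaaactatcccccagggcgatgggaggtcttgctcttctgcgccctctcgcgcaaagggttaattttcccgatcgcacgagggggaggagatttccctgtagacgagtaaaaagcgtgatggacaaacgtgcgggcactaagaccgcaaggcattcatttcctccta
The letters stand 113 bases before the start of Spp1 and, on the opposite strand, 180 bases before the start of Elovl6, and they are not in the Trem2 and Thrsp windows. Of 27025 mouse promoters in the table, 887 (3.28%) hold GAGGAAGT on either strand. Of the high-spread genes low in sample 3, 117 of 168 had a promoter, and 13 of these (11.1%) hold it, as does 1 of 43 (2.33%) for the genes high in sample 3. Among genes above 0.1 the share was 3.01%. CACGTG, an E-box bound by lipogenic and clock factors, is in none of the 4 windows, in 7.24% of all promoters, in 9.35% of those of genes above 0.1, in 10 of the 117 (8.55%) and in 3 of the 43 (6.98%). Neither motif contains the other, and a match describes the sequence and not binding.

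**Figure D4:**
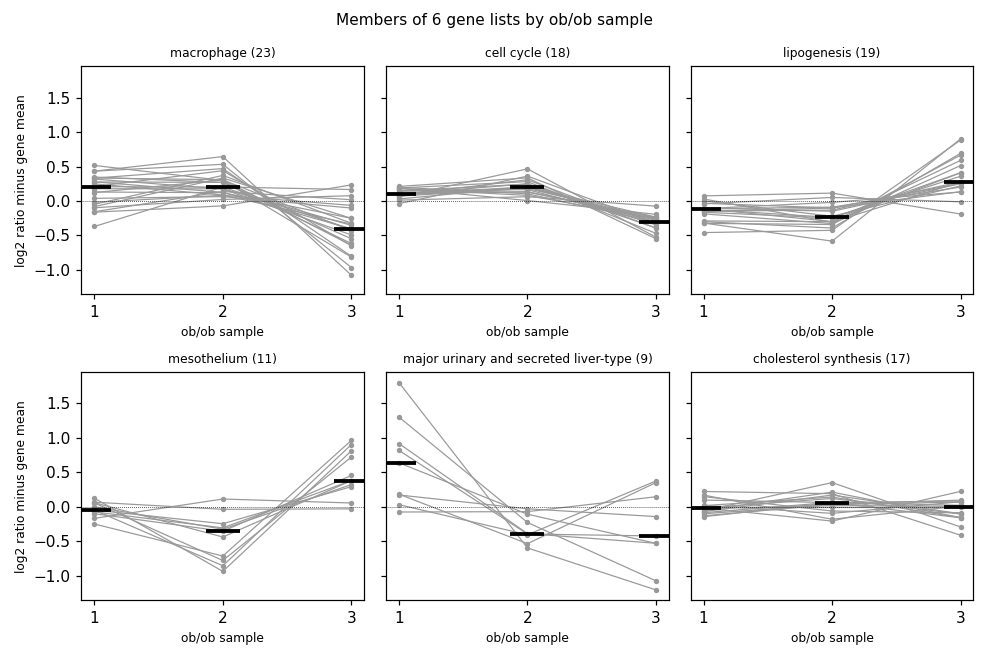
Log2 ratio of each member minus its mean over the 3 ob/ob samples, joined by a line per gene, for 6 gene lists, with the number of members above 0.1 in brackets and the median of each sample as a black bar. By the median, sample 3 is low for macrophage and cell cycle genes and high for lipogenesis and mesothelium genes. Sample 1 is high for the liver-type genes, and the median of sample 3 is at 0.00 for cholesterol synthesis genes.

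Mesothelial genes had sample 3 highest and sample 2 lowest, the order also held by the median deviations of the adipocyte and lipogenesis lists. The mesothelium is the flat epithelium that covers abdominal fat. Of 11 genes above 0.1, sample 3 was highest in 9 (background 37.9%) and sample 1 was above sample 2 in 10 (background 50.8%). Of the 11, 4 are high-spread (background 1.73%). The median deviations were -0.05, -0.35 and 0.38. Msln, the mesothelial surface protein mesothelin, read 3.23, 1.49 and 4.86, against an ob/+ mean of 5.42. The transcription factor gene Bnc1 read 0.43, 0.22 and 0.68, the uroplakin gene Upk1b 0.88, 0.51 and 1.25, and the membrane protein gene Gpm6a 0.64, 0.42 and 1.41. In all 4 the samples did not come in the pairs seen for macrophage genes, since samples 1 and 2 differed as well, by a median of 0.33 on the log2 scale over the list, against 0.25 for adipocyte identity and 0.08 for lipogenesis genes. Cdh3, a cadherin of epithelia, and Lrp2, an endocytic receptor of epithelia, were in no list and had the same order, at 1.02, 0.56 and 1.84 and at 0.81, 0.42 and 1.55.

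Most genes of secreted liver proteins had sample 1 high. Sample 1 stood apart high in 6 of 9 genes above 0.1 (background 12.7%). Of the 9, 5 are high-spread (background 1.73%), and the median deviations were 0.64, -0.39 and -0.42. Ttr, the carrier of thyroid hormone and vitamin A, read 1.61, 0.31 and 0.21 (SD 1.59). Fgb, a fibrinogen chain, read 0.26, 0.09 and 0.05, and Alb, serum albumin, 0.26, 0.07 and 0.09. Of the 40 leading genes by SD outside the lists, Fabp1, the liver fatty acid carrier, read 0.47, 0.10 and 0.06, and F2, which encodes prothrombin, 0.33, 0.09 and 0.05. Sample 1 was thus several times above the others, at low intensity.

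The same genes varied between the lean samples too. The median SD of the liver-type list was 0.59 between the ob/ob arrays and 0.85 between the ob/+ arrays, while the pool channel had 0.10. Of 8 reporters of major urinary proteins, carriers of scent molecules made mainly in liver, 5 are high-spread, against 1.73% of genes above 0.1. Their median SD was 0.65, against 0.86 between the ob/+ arrays, and Mup3 read 0.71, 0.27 and 0.30. Apoe, an apolipoprotein that macrophages and adipocytes also make, had another order, at 27.47, 21.25 and 28.57 (SD 0.47). The other reporter of Ttr read 0.02 in all 3 samples.

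An immunoglobulin gene held the largest SD of all. Igh, the heavy chain locus, read 3.24, 5.13 and 0.33, with log2 ratios of 1.43, 2.04 and -1.58 (SD 1.94). Another Igh reporter read 0.70, 1.00 and 0.12 (SD 1.47), whereas a further one read 0.14, 0.13 and 0.17 (SD 0.07). Jchain, which links antibody units in plasma cells, read 0.34, 0.62 and 0.08 (SD 1.59). Ighg, a heavy chain of class G, read 0.36, 0.71 and 0.11, and the light chain Igk-V28 read 0.20, 0.39 and 0.04. In the brightest reporter of each of these genes sample 2 was highest and sample 3 below the pool. Ighm, the heavy chain of class M, had the values 3.04, 3.53 and 3.00 (SD 0.11), and its 3 reporters had SDs of 0.07 to 0.13. Of 27 immunoglobulin reporters above 0.1, 7 are high-spread, against 1.73% of genes above 0.1. The median SD of the 27 was 0.111, against 0.115 over all genes above 0.1. Between the ob/+ arrays it was 0.118. Most of these reporters thus varied little. Their sequences are alike, so a reporter can read several genes, and the family was collected after its values were seen. The B cell genes Cd79b and Pax5 had SDs of 0.23 and 0.05.

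A few genes had sample 2 high. Cxcl10, a chemokine induced by interferon gamma, read 0.37, 0.72 and 0.23 (SD 0.78), and Nkg7, a granule protein of cytotoxic cells, read 0.10, 0.15 and 0.07 (SD 0.57). Picked after their values were seen, Cxcl9 read 0.55, 1.15 and 0.41, Ccl5 1.03, 1.85 and 0.54, and Iigp1, an interferon-induced GTPase, 1.34, 2.40 and 0.89. Of the 6 T and NK cell genes above 0.1, sample 2 was above sample 1 in 5 (background 45.3%) and sample 3 was lowest in 6 (background 33.7%). The interferon response list, made mostly of type I interferon targets, had no high-spread gene. At the background of 1.73% a list of 16 genes need not hold one. Sample 2 stood apart high in 6 of the 16 (background 14.03%).

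Other single genes stood out with sample 3 high. The alpha-defensins Defa20 and Defa1, antimicrobial peptides of the gut, read 0.12, 0.10 and 0.44 and 0.09, 0.13 and 0.45, whereas the other 4 alpha-defensin reporters had SDs of at most 0.18. Cd209b, a lectin of resident macrophages, read 0.38, 0.44 and 1.24, in the order opposite to Adgre1. Peg3, an imprinted transcription factor gene, read 5.29, 6.57 and 11.40 (SD 0.69), against an ob/+ mean of 19.31. Cldn5, a junction protein of endothelium, read 0.84, 0.63 and 1.73 (SD 0.72), and sample 3 was the highest in 10 of 12 endothelial genes (background 37.9%). Atf3, a stress-induced transcription factor gene, had sample 3 low, at 3.36, 3.26 and 1.23 (SD 0.69).

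The cholesterol synthesis, collagen and progenitor lists held no high-spread gene, and at the background of 1.73% lists of their size need not hold one. The median SD was 0.13 over 17 cholesterol synthesis genes, 0.19 over 19 collagen and matrix genes and 0.14 over 12 progenitor genes, against 0.115 over all genes above 0.1. The median deviations of sample 3 were 0.00, -0.01 and 0.06. Respiratory chain genes had a median SD of 0.14, and sample 3 was the highest in 12 of 14 (background 37.9%). All genes above 0.1 had a median deviation of 0.01 in sample 3.

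The remaining lists had sample 2 or sample 3 apart in part of their genes. Sample 2 stood apart low in 6 of 14 circadian genes (background 18.1%), and Nr1d1, a repressor of the clock, read 0.89, 0.68 and 1.16. Sample 3 was the highest in 11 of 14 hypoxia and glycolysis genes (background 37.9%), and Bnip3, a mitophagy gene induced by low oxygen, read 2.20, 2.26 and 4.16 (SD 0.57). Sample 3 was the lowest in 14 of 21 immediate early genes and 8 of 10 heat shock genes (background 33.7%). Red cell transcripts moved with sample 3 as well: Hbb-b1, a beta-globin gene, read 6.96, 8.49 and 11.42 (SD 0.41), and its SD between the ob/+ arrays was 1.17. Of the 9 skeletal muscle genes above 0.1, 1 is high-spread (background 1.73%). It is Myh2, a myosin heavy chain, at 0.43, 0.64 and 0.25, while Acta1 read 2.03, 1.80 and 1.97. The part of blood or muscle in the other results was not tested.

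Several of the 40 genes with the largest SD fell outside every list. Ces1c, a secreted carboxylesterase, read 0.31, 0.07 and 0.04, in the order of the liver-type genes. S100a7l2 read 1.04, 1.42 and 0.33, Pcp4l1 0.33, 0.30 and 0.07, and Htr2b, a serotonin receptor gene, 0.34, 0.40 and 0.13, with sample 3 low in each. Of the 273 high-spread genes, 235 belong to none of the lists.

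**Figure D5:**
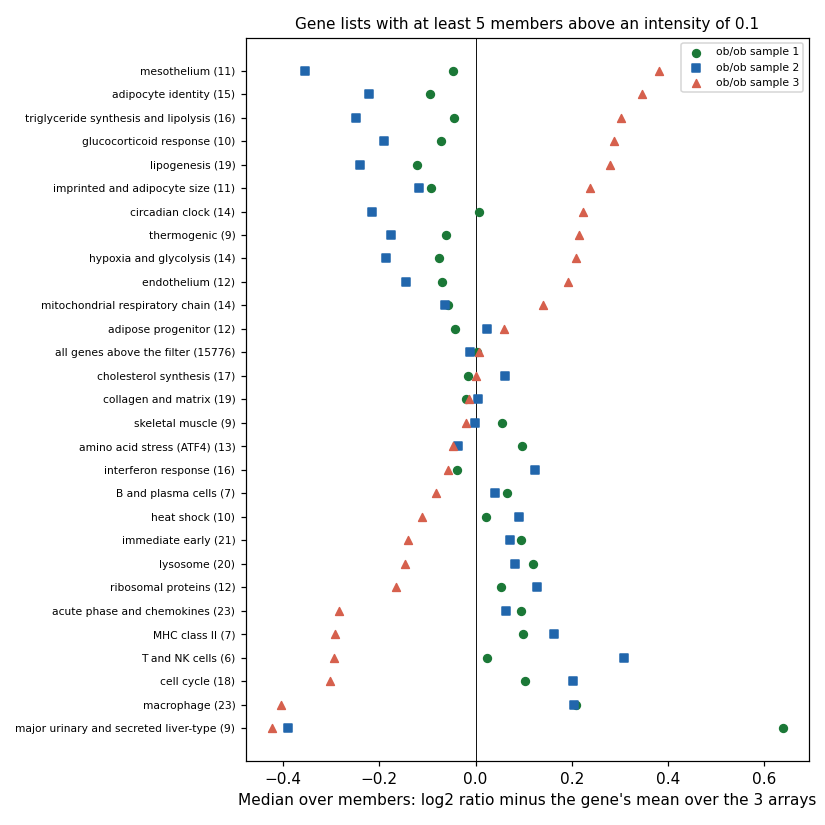
Median deviation of each ob/ob sample from the gene's own mean over the 3 samples (log2), for gene lists with at least 5 members above 0.1, with the number of members in brackets. Sample 3 lies between -0.42 and 0.38 and orders the lists from liver-type and macrophage genes at the bottom to mesothelium and adipocyte genes at the top.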

How the data were processed

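Trizol-extracted RNA was amplified in 2 rounds, per the labels' protocols, and the submitters' processing notes name Agilent Feature Extraction 8.5.1.1. The authors deposited a linear intensity for both channels, normalized (the method is not given in the sources used here), with 97.2% of the values in steps of 0.01. The deposited per-array p-value was not used, and the deposited log10 ratios served only as an alternative. The log2 of sample over pool was computed from the deposited intensities. The design text speaks of db/db islets and the table calls the controls wt, and the labels were followed. Table columns were assigned to groups only, with 0 left unassigned.

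Symbols came from the table and were updated through RefSeq names (3197 changed), which left 9345 reporters without one. The members and lists were chosen with earlier results of these data known. Genes named are the 40 brightest, the 40 with the largest SD, up to 4 members of each of 35 lists by SD and 2 by brightness, and cell type markers. Exceptions are stated, and a few genes are not reported here. Genes above 0.1 were counted as high-spread at an SD of at least 0.5, and the calculation was checked on simulated data. The alternatives concerned missing values, normalization, filters, rounding, reporters and left-out arrays. The number of arrays limits the precision. Python 3.11.15, pandas 2.3.3, numpy 2.4.6 and matplotlib 3.10.9 were used.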

Additional observations from a re-analysis of the deposited data

How the results depend on the processing

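Of 40 alternative values, 32 lay within 1.5 times the reported one and 8 did not. Of the 40 brightest genes, 14 were kept when reporters with a value on any ob/ob array were ranked, and 27 to 39 when an array was left out. The count of 273 high-spread genes became 461 with the sample channel alone, 158 with intensity above 0.5, which leaves fewer genes, and 1303 without a filter, which adds dim ones. With 1 array left out it ranged from 70 (without sample 3) to 600 (without sample 1). The 168 high-spread genes low in sample 3 became 273 (59.2%) with the sample channel alone and 110 (47.2%) after quantile normalization of the ratios, and the cause was not tested. Under that normalization the 54 genes high in sample 3 became 67 (28.8%). Counts of sample 3 low were recomputed for the macrophage, cell cycle and MHC class II lists. Counts of sample 3 high were recomputed for the lipogenesis, adipocyte identity, triglyceride and glucocorticoid lists, and of sample 1 high for the liver-type list. Each stayed within 1.5 times under both alternatives tried. The other lists were not recomputed. With 2 arrays no sample can stand apart, so those counts were not recomputed without an array. No paired analysis was possible because no test between groups was made and the columns carry no replicate number of the labels. Intensities near the step of 0.01 give coarse ratios, and the brightest spots lack values.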
